A study of Mus musculus with 95 samples.

Results

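The methionine and homocysteine cycle is described here through 9 genes, Bhmt, Bhmt2, Mtr, Mat1a, Gnmt, Pemt, Ahcy, Cbs and Cth, out of 55401 gene rows in the count table. They were taken by gene symbol. The members were chosen by a pathway name with results of these libraries already known, namely their liver fold changes between torpor-like and control mice, so the liver values of that contrast are given as a description and not as a test of the list.

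Polyadenylated RNA was sequenced from liver, kidney, cortex and white adipose tissue (WAT) of C57BL/6J mice, a standard inbred strain. The group labelled Stim was kept for 3 months in a torpor-like state (TLS). Torpor is a state in which a mammal lets its metabolism and body temperature drop to spare energy. TLS mice and control mice (Con) were of the same age, 205 days, and time-0 mice (T0) were 83 days younger. Each group held 8 animals, 4 labelled M and 4 labelled F. By their labels, all tissues came from the same animals, which gave 95 libraries. The kidneys of time-0 animals 4 and 5 carry the other sex letter than the other tissues under these labels. In all libraries the counts of Xist and 4 Y-linked genes matched the letter. For control animal 9BA4 no WAT library was analysed here, so control WAT has 7 libraries. The sources used here do not say how TLS was brought about. Library numbers of TLS and control animals do not interleave, so library order and TLS cannot be told apart in that contrast. Time-0 animals 1 to 4 are numbered among the TLS animals and time-0 animals 5 to 8 among the controls.

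Methionine is activated by methionine adenosyltransferase to S-adenosylmethionine (SAM), the methyl donor of most methylation reactions. Methyltransferases turn SAM into S-adenosylhomocysteine, which is split to homocysteine and adenosine. Homocysteine is then either remethylated to methionine, from folate by methionine synthase or from betaine by the betaine-homocysteine methyltransferases, or drained through transsulfuration to cysteine. Liver carries out most whole-body methionine metabolism, and kidney takes part in betaine use and transsulfuration.

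Libraries held 4031533 to 29269511 counts in liver, 8217875 to 28337864 in kidney, 14299369 to 22962145 in cortex and 15881766 to 29089492 in WAT. Each tissue carried its own markers. The summed level of 6 hepatocyte markers in liver was at least 46200 CPM, that of 6 proximal tubule markers in kidney at least 4920, that of 6 neuron markers in cortex at least 5760 and that of 6 adipocyte markers in WAT at least 10300. CPM are counts scaled to a common library size with TMM factors within a tissue, and FPKM divide these by the exon length of the gene in GENCODE vM21 so that genes can be set against each other. Calls are those of edgeR's quasi-likelihood test with p adjusted by Benjamini and Hochberg's method over the genes tested in a tissue, at a limit of 0.05. All 9 genes passed the low-count filter in liver, 8 in kidney (not Mat1a), and 6 each in cortex and WAT (not Bhmt, Bhmt2 and Mat1a). In bulk tissue, fewer cells of a type and less RNA per cell cannot be told apart.

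Upstream sequences are shown because Bhmt and Bhmt2 are neighbouring paralogs that differed in these data. In GRCm38, Bhmt lies at chr13:93616675-93637961 and Bhmt2 at chr13:93655720-93674302, both protein-coding and on the minus strand, with 17759 bases between the start of Bhmt and the end of Bhmt2. Bhmt2 stands head to head with Dmgdh, the dimethylglycine dehydrogenase that acts on the product of the BHMT reaction, and 130 bases separate their starts. Over the longest match of the transcripts, 1116 bases, Bhmt and Bhmt2 are 73.5% identical. For Bhmt, the 250 bases before its RefSeq start (GRCm38.p6, chr13:93637759-93638008, minus strand) were searched on both strands for 8 motifs. Of these bases, 203 lie inside the longer GENCODE gene model, so only the 30 bases around the match are printed (chr13:93637797-93637826). For Bhmt2, the 130 bases between the Bhmt2 and Dmgdh starts are printed (RefSeq, GRCm38.p6, chr13:93674303-93674432, read on the Bhmt2 strand). Capitals mark the matches.
Bhmt: cagaggcctgctATTGGacaaaggtcagtg
Bhmt2 to Dmgdh: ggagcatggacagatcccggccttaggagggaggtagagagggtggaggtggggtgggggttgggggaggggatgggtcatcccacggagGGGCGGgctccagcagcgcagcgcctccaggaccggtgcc
The Bhmt stretch held 1 match, a CCAAT box (CCAAT) on the other strand, 52 to 56 bases before the start. CCAAT occurred in 33.85% of the 32851 RefSeq promoters over the same 250 bases. The Bhmt2 stretch held 1 match, a GC box (GGGCGG), 35 to 40 bases before the start, and GGGCGG occurred in 27.32% of promoters over 130 bases. The other 6 motifs were not found in either stretch. The TATA box, searched as TATAAA, occurred in 12.37% of promoters over 250 bases. The E-box was searched as CACGTG, present in 6.02%. For the cAMP response element the letters were TGACGTCA, present in 1.55%. Forkhead factors were represented by TGTTTAC, in 3.17%, and HNF4 by CAAAGTCCA, in 0.38%. The glucocorticoid response element occurred in 0.01%. No match says only that these letters are not in this window. The promoter table matched 7 of the 9 genes.

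In liver, Bhmt was lower in TLS than in control mice by 8.77-fold, and Cth by 1.6-fold. These 2 of 9 genes were called, both lower, against 1.95% of all 13604 genes tested called in either direction. Neither share is read further, since this contrast was known when the list was made. The median log2 fold change over the 9 genes was -0.22, beside 0.08 over all genes tested. The other 7 genes lay between -0.77 and 0.20.

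Bhmt, the betaine-homocysteine methyltransferase that returns a methyl group from betaine to homocysteine, had 77.3, 150 and 432 CPM (lowest, median and highest) in TLS livers, against 215.1, 1480 and 3810 CPM in control livers and 854, 1910 and 3360 CPM in time-0 livers. The TLS and time-0 livers did not overlap. TLS and control livers overlapped through a single control animal, A123 (F), at 215.1 CPM, which lay below 3 of the 8 TLS animals, and the next lowest control animal had 992 CPM. All 8 TLS animals were below the mean of the control animals of their sex. The log2 fold change was -3.13 ± 0.433 (SE) for TLS against control and -3.34 ± 0.437 for TLS against time-0. The second contrast uses the same TLS livers and so adds no independent value. Time-0 livers 1 to 4, all F and numbered among the TLS libraries, had 854 to 3360 CPM of Bhmt, above every TLS liver. These mice were also 83 days younger than the TLS mice, and the part of library order was not tested. For control against time-0 the log2 fold change of Bhmt was -0.21 ± 0.398 (edgeR adjusted p = 0.835). The depth behind these values was 290 to 8643 reads in TLS, 4469 to 66587 in control and 17915 to 70201 in time-0 livers.

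Reads of Bhmt may be shared with Gm5096, a single-exon copy 99.4% identical to the main Bhmt transcript over 1869 bases. Gm5096 had a median of 25.5 reads in TLS, 222 in control and 262 in time-0 livers. This was 0.637%, 0.705% and 0.708% of the Bhmt reads of the same groups, in that order. Reads from the copies cannot be told apart where they are identical.

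Bhmt2, which takes its methyl group from S-methylmethionine, had 107.1, 144.2 and 203.3 CPM in TLS livers, 146.9, 190.2 and 204.9 CPM in control livers and 111.2, 133.1 and 167.2 CPM in time-0 livers. The groups overlapped, and the log2 fold change for TLS against control was -0.32 ± 0.148, one that was not called. Control livers stood above time-0 livers by 0.43 ± 0.148 (edgeR adjusted p = 0.189). Set against each other per length, Bhmt stood at a median of 0.482 times Bhmt2 in TLS livers (0.209 to 1.17), 3.68 times in control livers (0.55 to 8.19) and 6.07 times in time-0 livers (3.29 to 9.42). Whether Bhmt or Bhmt2 is the higher in TLS livers depends on the length used. The exon union of Bhmt is 5758 bases and its first principal transcript 2490, while both are 2467 bases for Bhmt2. With the lengths of the first principal transcripts the medians were 1.11 times in TLS, 8.51 times in control and 14.04 times in time-0 livers. The lower ratio of TLS livers does not turn on the length, which is the same for all libraries.

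Mtr, methionine synthase, carries the folate route of remethylation. It had 2.93, 5.22 and 7.07 CPM in TLS livers, 2.92, 3.996 and 5.62 CPM in control livers and 4.93, 5.42 and 6.78 CPM in time-0 livers, with 11 to 172 reads a library. The groups overlapped, with log2 fold changes of 0.20 ± 0.195 for TLS against control and -0.42 ± 0.193 for control against time-0 (edgeR adjusted p = 0.309). The level of Bhmt per length was a median of 47.0 times that of Mtr in TLS livers (28.5 to 217), 550 times in control livers (60.1 to 1930) and 473 times in time-0 livers (253 to 866). With the transcript lengths the medians were 105.8 times in TLS, 1240 times in control and 1060 times in time-0 livers.

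Mat1a encodes the liver form of methionine adenosyltransferase, which makes SAM. It had 932, 1560 and 2130 CPM in TLS livers, 1480, 1840 and 2150 CPM in control livers and 1070, 1540 and 2590 CPM in time-0 livers. The log2 fold change for TLS against control was -0.22 ± 0.192. Mat1a stood above Mat2a, the form used by most other tissues, by a median of 57.2 times per length in TLS, 52.6 times in control and 37.7 times in time-0 livers. With the transcript lengths these medians were 38.6, 35.5 and 25.5 times in TLS, control and time-0 livers.

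Gnmt, glycine N-methyltransferase, and Pemt, which methylates phosphatidylethanolamine to phosphatidylcholine, both consume SAM. Gnmt had 357, 961 and 2200 CPM in TLS livers, 509, 1300 and 4810 CPM in control livers and 206, 1060 and 1910 CPM in time-0 livers. The log2 fold change for TLS against control was -0.77 ± 0.46. Pemt had 183, 331 and 709 CPM in TLS livers, 248, 443 and 591 CPM in control livers and 205, 282 and 451 CPM in time-0 livers. Its log2 fold change for TLS against control was -0.12 ± 0.266, and for control against time-0 0.53 ± 0.267 (edgeR adjusted p = 0.342). In both genes the 3 groups overlapped.

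Ahcy, which splits S-adenosylhomocysteine, had 489, 819 and 1340 CPM in TLS livers, 719, 945 and 1410 CPM in control livers and 490, 949 and 1200 CPM in time-0 livers. The log2 fold change for TLS against control was -0.17 ± 0.229, smaller than its SE.

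Cbs and Cth carry out transsulfuration. Cbs, cystathionine beta-synthase, had 234, 249 and 510 CPM in TLS livers, 171, 266 and 470 CPM in control livers and 219, 390 and 627 CPM in time-0 livers. Its log2 fold change was 0.05 ± 0.245 for TLS against control and -0.47 ± 0.246 for control against time-0 (edgeR adjusted p = 0.376). Cth, cystathionine gamma-lyase, releases cysteine in the following step. It had 103.5, 140.4 and 162.8 CPM in TLS livers, 184.9, 206 and 254 CPM in control livers and 165.9, 279.3 and 424.9 CPM in time-0 livers. Every TLS liver was below every control liver and below every time-0 liver. The log2 fold change of Cth was -0.68 ± 0.175 for TLS against control and -1.06 ± 0.176 for TLS against time-0. For control against time-0 it was -0.38 ± 0.175 (edgeR adjusted p = 0.3). The contrast of TLS against time-0 uses the same TLS livers and so adds no independent value for Cth. The call of Cth for TLS against control stood near the threshold: leaving out single livers gave adjusted p values of 0.0221 to 0.0976 with the fold change between -0.72 and -0.62, and the call was kept in 5 of 24 such fits. It ended without any one of 7 TLS animals (all but B23B), 7 control animals (all but 5A66) or time-0 animals 4 to 8. Per length, Cth stood at a median of 1.26 times Cbs in TLS, 2.2 times in control and 1.96 times in time-0 livers, and with the transcript lengths at 0.655 times in TLS, 1.15 times in control and 1.02 times in time-0 livers.

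**Figure D1:**
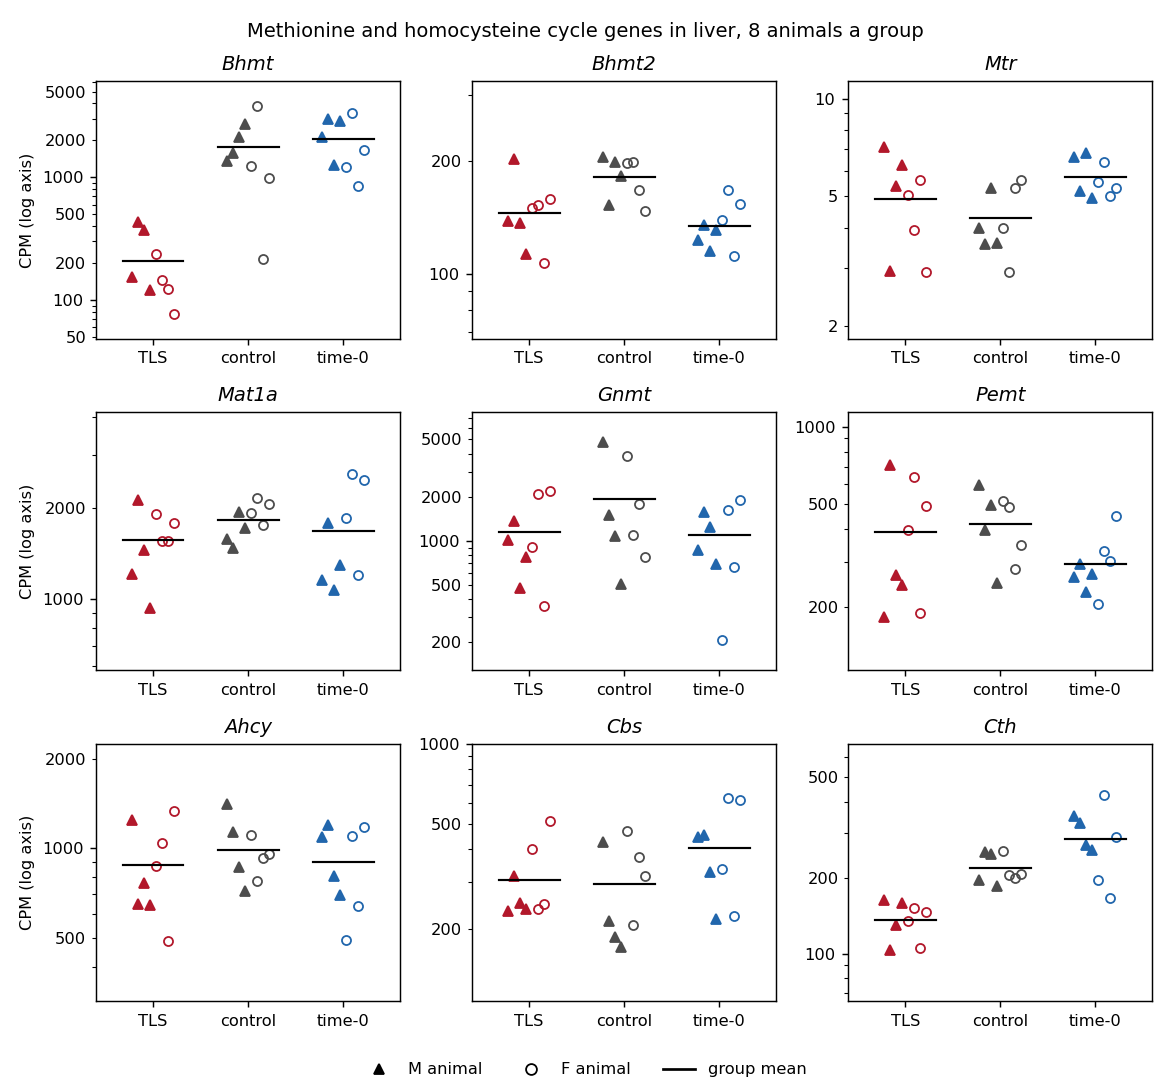
CPM of the 9 genes in each liver library on log axes, with TLS, control and time-0 animals from left to right in each panel, triangles for M, open circles for F and a bar at the group mean. The TLS livers have 77.3 to 432 CPM of Bhmt, and 1 control animal, at 215.1 CPM, falls among them; for Cth the TLS livers, at 103.5 to 162.8 CPM, lie below all others.

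For control against time-0, 0 of the 9 genes were called in liver (0.529% of all genes tested; 2057 genes at an unadjusted p below 0.05), by edgeR and also by DESeq2. Among the 9 genes, Bhmt2, Cth and Mtr had unadjusted edgeR p values of 0.00695, 0.0373 and 0.0406. For TLS against time-0, 2 of 9 were called (1.34% of all genes), Bhmt and Cth. This contrast uses the same TLS livers as the one known when the list was made. Its share is therefore not read further. Together the 9 genes took 0.373% to 0.624% of the counts in TLS livers (median 0.45%), 0.454% to 1.0% in control livers (0.692%) and 0.424% to 1.11% in time-0 livers (0.696%).

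Marker levels in liver are set beside these results, and the ranges of the sums overlapped between TLS and control livers. The summed level of the 6 hepatocyte markers was 46200 to 108000 CPM in TLS livers (median 73300), 79200 to 152000 in control livers (108000) and 62900 to 98300 in time-0 livers (95000), and 0 of the 6 were called. Of the 6 pericentral markers 1 was called, Lect2, lower in TLS than in control livers. The sums were 3560 to 10400 CPM (median 8590) in TLS, 5300 to 9750 (6530) in control and 4380 to 9830 (7490) in time-0 livers. None of the 6 periportal markers was called, with medians of 4320, 5310 and 6170 CPM in TLS, control and time-0 livers. Macrophage markers summed to 42.6 to 754 CPM in TLS (median 117.7), 58.9 to 291 in control (148.7) and 78.4 to 162 in time-0 livers (115.7). Of 6 stellate cell and fibroblast markers, Col1a1 was called, higher in TLS than in control livers, and so was Slc13a3, the 1 proximal tubule marker tested in liver. The part of these markers in the liver results was not tested.

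Within M or F animals alone the liver fold change of Bhmt for TLS against control was -2.86 in M and -3.43 in F, each with 4 animals a group, and the F value was not called. M minus F, the TLS effect differed by 0.57 ± 0.819 (log2) for Bhmt (edgeR adjusted p = 0.909) and 0.02 ± 0.364 for Cth (adjusted p = 0.997). Of the 9 genes, 0 were called for this difference by edgeR or DESeq2 in liver (0.00735% of all genes; 840 genes at an unadjusted p below 0.05).

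The liver genes whose level followed each of the 9 most closely were sought over the 24 liver libraries, as log2 CPM with the mean of each treatment and sex taken out. Apart from Gm5096 for Bhmt (Pearson r 0.853), they were Serpinf2 for Bhmt2 (0.871), Rapgef2 for Mtr (0.844), Dap for Mat1a (0.842), Egln2 for Gnmt (0.961), Cst3 for Pemt (0.971), Got2 for Ahcy (0.946), Lrp10 for Cbs (0.936) and Aldh7a1 for Cth (0.852). Each is the highest among the 13604 genes tested in liver less the 9 members. Both genes of a pair are read from the same libraries, which differed in depth (4031533 to 29269511 counts). The part of depth and handling in these values was not tested. Among the members, Gnmt and Ahcy (0.793), Bhmt2 and Mat1a (0.762) and Bhmt2 and Pemt (0.726) were most alike. Bhmt followed Mat1a (0.629) and Bhmt2 (0.505), and its r with Gnmt was -0.0713. Of these 8 genes other than Gm5096, 0 were called for TLS against control in liver. Gm5096 was, at -3.08 ± 0.441.

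Around the 9 genes, 52 further genes of 8 lists were looked up: remethylation partners and folate supply, choline oxidation, other SAM synthesis and S-adenosylhomocysteine removal, other small-molecule methyltransferases, cysteine use, sulphide oxidation, polyamines with methionine salvage, and phosphatidylcholine synthesis. In liver, 0 of 52 were called higher and 1 lower for TLS against control, with a median log2 fold change of -0.16. Of all genes tested, 1.95% were called in this contrast, so a count of 1 in 52 does not stand out. The one called was Mmachc, which processes the cobalamin cofactor that Mtr needs. It had 4.58, 6.19 and 8.31 CPM in TLS livers, 5.93, 10.8 and 14.3 CPM in control livers and 7.34, 8.77 and 9.57 CPM in time-0 livers, and the log2 fold change for TLS against control was -0.71 ± 0.179 (edgeR adjusted p = 0.0389). The TLS and control livers overlapped. For TLS against time-0, 1 of 52 was called (1.34% of all genes), Ethe1, the sulphur dioxygenase of mitochondria, at -1.24 ± 0.252 (edgeR adjusted p = 0.0107). For control against time-0, 0 of 52 were called (0.529% of all genes).

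In kidney, 0 of the 8 genes tested were called for TLS against control (0.231% of all 16005 genes; 1353 genes at an unadjusted p below 0.05), 0 for control against time-0 (0.312%) and 0 for TLS against time-0 (0.681%), by edgeR and by DESeq2 alike. At an unadjusted p below 0.05 stood Bhmt and Pemt for TLS against control (0.0294 and 0.0271), and Bhmt and Cbs for TLS against time-0 (0.00406 and 0.0266). Kidney Bhmt had 0.817, 4.27 and 12.1 CPM in TLS animals, 1.68, 7.13 and 11.4 CPM in control animals and 1.83, 8.45 and 23.5 CPM in time-0 animals. The log2 fold change was -0.60 ± 0.259 for TLS against control (edgeR adjusted p = 0.524) and -0.81 ± 0.257 for TLS against time-0 (adjusted p = 0.135). In F animals alone Bhmt was called for TLS against time-0 (-1.05, edgeR adjusted p = 0.0363), and so it was without TLS animal E46E (-1.02, adjusted p = 0.0406).

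Kidney Cth had 70.4, 152 and 178 CPM in TLS, 143.1, 158.7 and 183.5 CPM in control and 139.03, 152.3 and 175.4 CPM in time-0 animals, with a log2 fold change of -0.20 ± 0.128 for TLS against control (edgeR adjusted p = 0.694). The lowest value was that of TLS animal A5DA (M). Among the 4 M animals of the TLS group, this kidney also had the lowest Bhmt, Bhmt2, Gnmt, Ahcy, Cbs and Mtr and the highest Pemt, and the highest share of counts from the nuclear RNAs Malat1, Neat1 and Meg3 of all TLS and control kidneys (0.9594%). Without it, Cth stood at -0.11, and no member was called. Kidney Pemt had 1.87, 2.42 and 4.95 CPM in TLS, 0.702, 1.66 and 3.52 CPM in control and 1.33, 1.61 and 2.90 CPM in time-0 animals.

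For the other kidney members the log2 differences between TLS and control animals were close to their SE or smaller. Bhmt2 differed by -0.12 ± 0.126, Mtr by -0.06 ± 0.145, Gnmt by -0.15 ± 0.182, Ahcy by -0.02 ± 0.123 and Cbs by -0.15 ± 0.135. Mat1a had 0 reads in 18 of 24 kidneys and at most 4. Of the 52 further genes, 0 were called in kidney for TLS against control, 1 for control against time-0 (Ethe1, lower) and 1 for TLS against time-0 (Etnk2, an ethanolamine kinase, higher). These counts stand beside 0.231%, 0.312% and 0.681% of all genes called in the same contrasts.

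The TLS effect was set between the tissues in 1 fit of liver and kidney. Bhmt differed by -2.50 ± 0.512 on the log2 scale, liver minus kidney, and was the 1 member called (0.356% of all 16871 genes). This difference rests on the liver contrast with which the list was chosen. By their labels, the same animals gave both tissues. With the animal as a replicate block, time-0 animals 4 and 5 had to be dropped. The difference of Bhmt was then -2.21 ± 0.512 and not called, and 0 of 9 members were called. Without those animals and without the block it was -2.51 ± 0.529 and called. Cth differed by -0.46 ± 0.219 (edgeR adjusted p = 0.323), so its lower level in TLS livers was not shown to be larger than in kidney. For the 3-month change of controls, 0 of 9 differed between the tissues (0.0711% of all genes; 1509 genes at an unadjusted p below 0.05), with Bhmt at -0.06 ± 0.501 (adjusted p = 1.0).

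**Figure D2:**
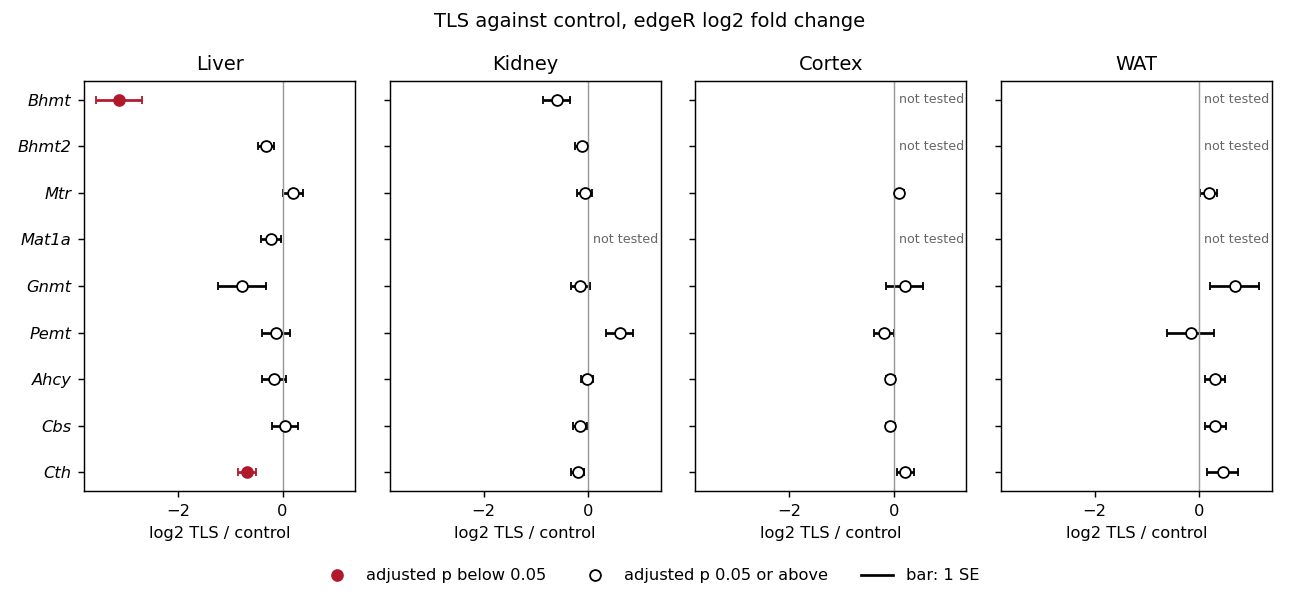
Log2 fold change of TLS against control for each of the 9 genes in the 4 tissues, with bars of 1 SE, filled red where the edgeR adjusted p was below 0.05. Bhmt in liver, at -3.13, stands apart from its kidney value of -0.60, and Bhmt and Cth in liver are the 2 filled points.

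In cortex, 0 of the 6 genes tested were called for TLS against control (5.41% of all 16609 genes; 3745 genes at an unadjusted p below 0.05), by edgeR and DESeq2. For control against time-0, 2 of 6 were called, Ahcy and Cth, both higher, where 21.2% of all genes were called. For TLS against time-0, 1 of 6 was called, Cth, again higher, where 35.7% of all genes were. Neither share stands out from that of all genes. Cortex Cth had 3.01, 3.76 and 4.66 CPM in TLS, 2.20, 2.84 and 5.64 CPM in control and 1.72, 2.41 and 2.89 CPM in time-0 animals. Every TLS cortex was thus above every time-0 cortex, with a log2 fold change of 0.72 ± 0.165 (edgeR adjusted p = 0.00123), and controls were above time-0 by 0.50 ± 0.166 (adjusted p = 0.0308). The difference between TLS and control was 0.22 ± 0.162 (adjusted p = 0.45).

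Cortex Ahcy had 15.0, 19.5 and 22.5 CPM in TLS, 17.2, 20.7 and 22.7 CPM in control and 13.3, 16.5 and 20.2 CPM in time-0 animals, with 0.28 ± 0.0904 for control against time-0 (edgeR adjusted p = 0.0262) and 0.22 ± 0.0903 for TLS against time-0 (adjusted p = 0.0553). Both calls for control against time-0 ended without time-0 animal 1 or 2 or control animal 9916, and that of Cth also without control animal A123 or D215 or time-0 animal 6. The Ahcy value for TLS against time-0 became a call without any one of TLS animals DDF3 and 47BE, control animal 983B and time-0 animals 3 and 8. Measures of these libraries moved with the groups: the nuclear RNAs took 0.2094% to 0.3175% of counts in TLS, 0.2139% to 0.6811% in control and 0.4523% to 0.6029% in time-0 cortex, and 6 glia markers summed to medians of 6150, 4300 and 3760 CPM in TLS, control and time-0 cortex. With the nuclear share as a covariate, Cth stood at 0.37 for control against time-0 (adjusted p = 0.119) and at 0.31 for TLS against time-0 (0.462), and Ahcy at 0.26 for control against time-0 (0.0538). The part of the glia markers was not tested. Mat1a, which is high in liver, had at most 0.357 CPM in any cortex.

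Cbs in cortex had 22.9, 35.5 and 45.9 CPM in TLS, 32.1, 33.2 and 42.7 CPM in control and 30.9, 34.8 and 35.3 CPM in time-0 animals. Its mean differed by -0.06 ± 0.0881 on the log2 scale between TLS and control. Mtr differed by 0.11 ± 0.0803, Gnmt by 0.21 ± 0.357 and Pemt by -0.19 ± 0.19. Of the 51 further pathway genes tested in cortex, 7 were called higher and 1 lower for TLS against control, 7 and 3 for control against time-0, and 20 and 7 for TLS against time-0. These counts stand beside 5.41%, 21.2% and 35.7% of all genes called in the same contrasts. Over all genes, the calls numbered 2 in place of 899 for TLS against control once the nuclear share was a covariate. They numbered 3055 in place of 3527 for control against time-0 and 866 in place of 5934 for TLS against time-0. For TLS against control there were 2 calls in F animals alone and 3404 in M animals alone. A different TLS effect in M and F was called for 844 genes, and for 1 with the nuclear share as a covariate.

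In WAT, 0 of the 6 genes tested were called for TLS against control (0.00596% of all 16784 genes; 1857 genes at an unadjusted p below 0.05), control against time-0 (0.161%) or TLS against time-0 (0.226%), by edgeR and DESeq2. The fold changes for TLS against control were 0.30 ± 0.19 for Ahcy, 0.31 ± 0.199 for Cbs, 0.45 ± 0.298 for Cth, 0.68 ± 0.474 for Gnmt, 0.18 ± 0.169 for Mtr and -0.16 ± 0.453 for Pemt on the log2 scale. WAT Cbs had 10.2, 14.1 and 22.7 CPM in TLS, 7.45, 12.9 and 18.3 CPM in control and 6.85, 10.7 and 15.3 CPM in time-0 animals, and its 0.54 ± 0.193 for TLS against time-0 had an adjusted p of 0.21. None of 51 further pathway genes was called in these contrasts in WAT. The libraries of this fat depot differ in what else they hold, with 6 skeletal muscle markers at 13.99 to 5240 CPM in TLS, 37.8 to 231 in control and 46.2 to 82.5 in time-0 animals.

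Set side by side per length over all libraries of a tissue, the 9 genes fell into 3 patterns of level. Mat1a, Gnmt, Bhmt and Pemt were far higher in liver than in the other tissues. Mat1a had 488 ± 123.3 FPKM in liver (SD over libraries) and at most 0.0311 FPKM on average elsewhere. Gnmt had 1160 ± 886 FPKM in liver and 31.2 ± 13.0 in kidney, Pemt 175 ± 70.6 in liver and 6.81 ± 8.34 in WAT, and Bhmt 232 ± 200 in liver and 1.24 ± 1.02 in kidney. Bhmt2, Cbs, Cth and Ahcy were high in liver and kidney: Bhmt2 had 62.3 ± 12.6 FPKM in liver and 56.1 ± 16.6 in kidney, Cth 76.4 ± 28.7 and 54.5 ± 8.45, Cbs 44.8 ± 17.7 and 32.9 ± 19.6, and Ahcy 329.3 ± 93.7 and 100.9 ± 32.9, with liver first. For Bhmt2, Cbs and Cth the difference between these tissues was smaller than the sum of both SDs, with M and F animals pooled. The kidney SDs of Cbs and Bhmt2 take in sex differences. Cbs averaged 379.66 CPM in M and 113.45 in F kidneys, beside 290.29 in M and 380.61 in F livers. Bhmt2 averaged 171.41 CPM in M and 105.51 in F kidneys, beside 152.85 in M and 154.39 in F livers. Mtr was lowest in liver, with 0.583 ± 0.145 FPKM, beside 2.18 ± 0.446 in kidney, 1.83 ± 0.214 in cortex and 2.72 ± 0.641 in WAT.

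Within liver, over all 3 groups, the order of the mean level per exon-union length was Gnmt, Mat1a, Ahcy, Bhmt, Pemt, Cth, Bhmt2, Cbs and Mtr. Each pair of neighbours in this order differed by less than the sum of the SDs of both, except Cbs and Mtr. The place of Bhmt in it differed between the groups: it ranked 8 of 9 in TLS livers (36.1 FPKM), 4 in control livers (305.5 FPKM) and 3 in time-0 livers (354.8 FPKM). With the transcript lengths it ranked 6 in TLS, 2 in control and 2 in time-0 livers. In kidney the order was Ahcy, Bhmt2, Cth, Cbs, Gnmt, Mtr, Bhmt, Pemt and Mat1a. With the transcript lengths Cbs ranked 2 there, and Bhmt (2.87 FPKM) stood above Pemt and Mtr. Bhmt was at a median of 0.0176 times Bhmt2 in TLS, 0.0246 times in control and 0.033 times in time-0 kidneys, and with the transcript lengths at 0.0408, 0.057 and 0.0764 times. In cortex Ahcy (6.65 ± 0.968 FPKM), Cbs (4.53 ± 0.63), Mtr and Cth (1.14 ± 0.365) led, with every other member below 1 FPKM (with the transcript lengths Cbs ranked 1 there and Pemt had 2.01 FPKM). In WAT Ahcy (19.3 ± 9.57), Pemt, Cth (4.89 ± 2.26), Mtr and Cbs (1.71 ± 0.559) led. The tissues were scaled separately and no test was made between them.

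**Figure D3:**
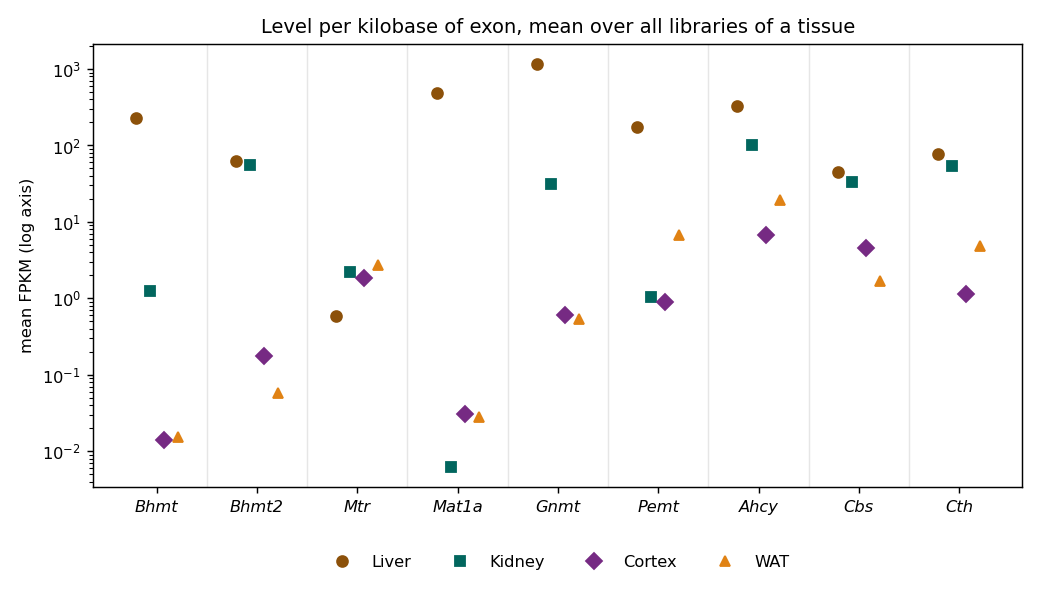
Mean FPKM of the 9 genes on a log axis in liver (circles), kidney (squares), cortex (diamonds) and WAT (triangles), over 24 libraries a tissue (23 in WAT). Mat1a spans 488 FPKM in liver to 0.00619 FPKM in kidney, and Mtr is the gene whose liver point lies lowest.

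M and F animals differed in kidney, a comparison added after the kidney values had been seen. Of 8 genes tested, 5 were called (46.8% of all 16005 genes), 4 higher and 1 lower in M than in F, a share near that of all genes. Cbs had 252, 354 and 530 CPM in M kidneys and 87.3, 105.4 and 166.1 CPM in F kidneys, without overlap over 12 animals of each sex, a log2 difference of 1.75 ± 0.114 (edgeR adjusted p = 4.52e-12). Bhmt went the other way, with 0.817, 2.25 and 3.97 CPM in M kidneys and 4.97, 11.0 and 23.5 CPM in F kidneys, again without overlap (-2.24 ± 0.217, adjusted p = 7.66e-09). Bhmt and Bhmt2 thus differed between the sexes in opposite directions, since Bhmt2 was higher in M by 0.70 ± 0.104 (adjusted p = 5.36e-06), with 112.9 to 208.8 CPM in M and 76.9 to 123.2 CPM in F kidneys. Ahcy was higher in M by 0.81 ± 0.101 (adjusted p = 4.8e-07) and Gnmt by 0.88 ± 0.15 (adjusted p = 3.56e-05). Cth, at -0.07 ± 0.104, Mtr, at -0.08 ± 0.118, and Pemt, at 0.44 ± 0.213, were not called. Pemt was called without time-0 animal 5 (adjusted p = 0.0357), and Cth once the fit took in the share of nuclear RNAs (-0.21, adjusted p = 0.0247).

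These 5 calls held in each of 24 fits that left out 1 kidney and without time-0 animals 4 and 5, whose sex letter in kidney differs from that in their other tissues. Kidney markers differed between the sexes too. Of 6 proximal tubule markers 2 were called higher and 1 lower in M. Their sums were 4920 to 19200 CPM in M (median 15400) and 5860 to 14300 CPM in F kidneys (8600). Of 6 markers of other nephron segments, 5 were lower in M (3860 to 5730 CPM in M, 5550 to 7320 CPM in F kidneys). All 6 endothelial markers were lower in M, at 183.7 to 229.7 CPM in M and 265.1 to 338 CPM in F kidneys, without overlap. The 6 hepatocyte markers summed to 1060 to 2740 CPM in M and 101.9 to 182.3 CPM in F kidneys, again without overlap. Among the 5 of them tested, 2 were called higher and 1 lower in M. The levels of the single genes in this sum are not given here. The part of these marker lists in the differences of the members was not tested. Of the 52 further pathway genes, 25 were called higher and 2 lower in M kidneys, beside 24.6% and 22.2% of all genes tested. Whether TLS acted differently in M and F kidneys was called by edgeR for 0 of 8 members (0% of all genes; 1326 genes at an unadjusted p below 0.05). The one with an unadjusted p below 0.05 was Cbs (-0.55 ± 0.237, edgeR adjusted p = 0.58).

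In the other tissues, sex was called for 0 of 9 members in liver (6.4% of all genes) and 0 of 6 in cortex (0.126%), by edgeR and DESeq2, with unadjusted values below 0.05 for Mat1a in liver (-0.36 ± 0.157, edgeR adjusted p = 0.207) and for Cbs, Cth and Mtr in cortex. In WAT 1 of 6 was called (11.8%). WAT Ahcy had 18.9, 31.5 and 50.2 CPM in M animals and 52.5, 75.9 and 128.3 CPM in F animals, without overlap (-1.21 ± 0.157, edgeR adjusted p = 1.34e-05), the reverse of its direction in kidney. That the sex difference of Ahcy differs between kidney and WAT was not tested in 1 fit. The 6 adipocyte markers summed to medians of 28800 CPM in M and 26000 CPM in F animals, with 0 of 6 called. Stellate cell and fibroblast markers summed to 1860 to 5240 CPM in M (median 2800) and 3650 to 7570 CPM in F animals (5010), and 3 of the 5 tested were lower in M. The 3 nuclear RNAs summed to 2830 to 6030 CPM in M and 1480 to 3360 CPM in F animals. Fitted together with the nuclear share, Ahcy differed by -1.22 (edgeR adjusted p = 0.00137), and the part of the fibroblast markers was not tested. A different TLS effect in M and F was called for 0 of 6 members in cortex (5.08% of all genes) and in WAT (0%), with edgeR unadjusted p values of 0.0138 for Cbs and 0.0229 for Cth in cortex and of 0.0445 for Mtr in WAT.

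**Figure D4:**
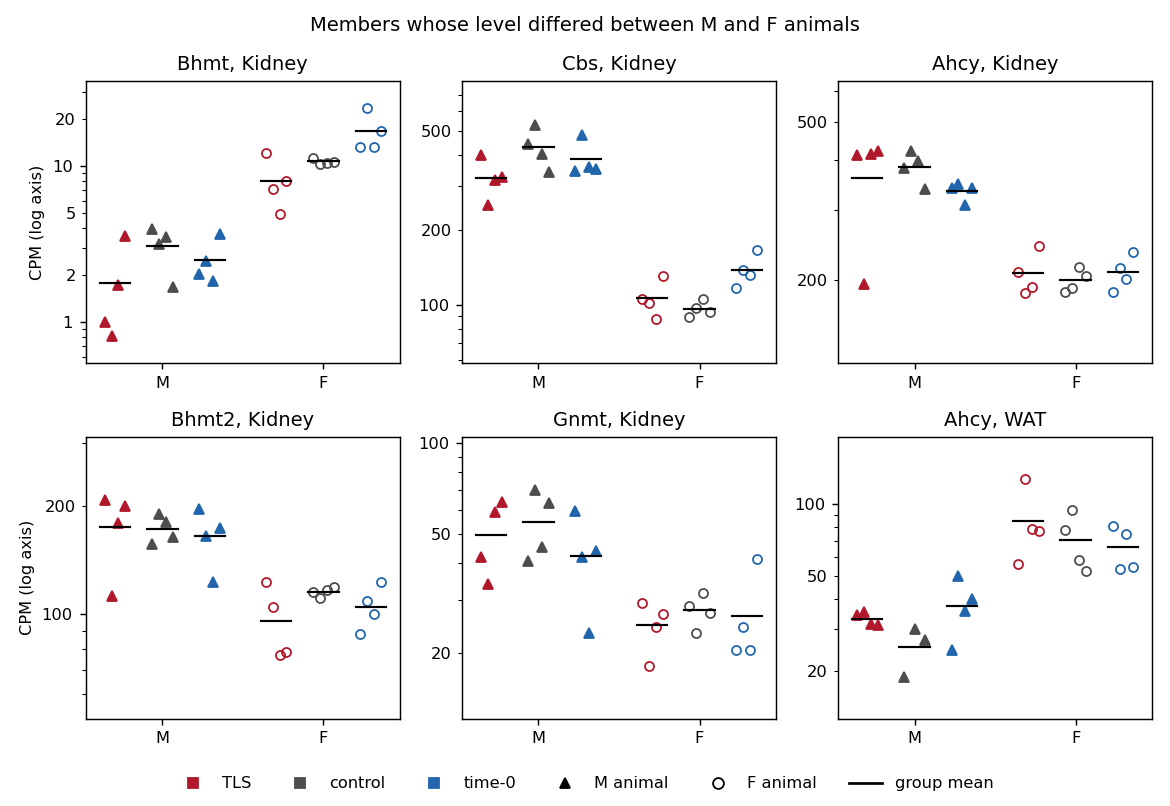
CPM on log axes of Bhmt, Cbs, Ahcy, Bhmt2 and Gnmt in kidney and of Ahcy in WAT, with M animals (triangles) left of F animals (open circles) and TLS, control and time-0 from left to right within each sex; bars are group means. M kidneys have 252 to 530 CPM of Cbs and F kidneys 87.3 to 166, while Bhmt is at most 3.97 CPM in M and at least 4.97 CPM in F kidneys.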

How the data were processed

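Total RNA of perfused mice was poly(A)-selected, made into libraries with NEBNext Ultra II and sequenced on a NovaSeq instrument, per the labels' protocols; STAR 2.7.10 and mm10 (GRCm38) are named in the submitters' processing notes. The authors deposited 1 table of raw read counts per gene and library, whose first line holds the word corrected; its meaning, the annotation and the strand setting are not given in the sources used here.

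The gene list, the pathway and marker lists and the tests were chosen with earlier results of these data known, and M against F was added after the kidney values had been seen. In each tissue, edgeR 4.0.16 (R 4.3.3; filterByExpr, minimum count 10; TMM; robust quasi-likelihood; all 3 groups with sex as covariate) gave log2 fold changes and Benjamini-Hochberg adjusted p; SE is the fold change over the square root of F. Alternatives used DESeq2 1.42.0, RLE scaling, no filter, no sex covariate, fewer groups, 1 sex, the nuclear RNA share and each library left out. Liver and kidney of 22 animals were paired by animal label; their deviations correlated at -0.272 to 0.61 (mean 0.0526). All 9 members were named in every tissue, and from each pathway list up to 3 called genes with the smallest p in liver and 1 or 2 elsewhere. Levels per length used the exon union of a gene and, as an alternative chosen after seeing the data, its first principal protein-coding transcript. Gene models are GENCODE vM21, promoters RefSeq GRCm38.p6, and transcripts were matched with blastn 2.17.0. The fit was also run on simulated data, and the outcome is not given here. A gene that was not called is not shown to be unchanged.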

Additional observations from a re-analysis of the deposited data

Results flagged for a closer look

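In 87 groups of 7 or 8 libraries (a member in a tissue and group), 4 had an extreme library whose gap to the nearest other exceeded the Dixon limit at 95%, where chance gives about 5% of groups. Kidney Pemt was 4.95 CPM in TLS animal A5DA, with the nearest other TLS kidney at 2.86 CPM. Cortex Cbs was 42.7 CPM in control animal E329, with the nearest at 34.2 CPM. WAT Gnmt was 2.02 CPM and WAT Pemt 93.8 CPM in time-0 animal 6, with the nearest at 0.788 and 12.6 CPM. Mat1a was 0.326 CPM in that fat library.

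The effect of TLS on Bhmt differed between liver and kidney by a log2 value of -2.5 (edgeR adjusted p = 0.0186; this rests on the liver contrast with which the list was chosen). With the animal as a replicate block the adjusted p was 0.072.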

How the results depend on the processing

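In liver, members called for TLS against control numbered 2, against 1 without the low-count filter, 1 without the sex covariate, 1 with only both groups compared, 1 in M alone and 0 in F alone, and 1 to 2 when single libraries were left out. Bhmt kept its call in all 24 of those and in 7 of 8 other alternatives (-3.43 to -2.86; F alone, adjusted p = 0.106), Cth in 5 and 3. For TLS against time-0 in liver (2) it was 0 in F and 1 in M alone, and for M against F in liver 0 to 1 over left-out libraries (Mat1a without TLS animal A5DA). In kidney (0 each), F alone gave 1 for control against time-0 (Cbs) and 1 for TLS against time-0 (Bhmt); left-out libraries gave 0 to 1. In cortex, M alone gave 2 for TLS against control (0), where it gave 3404 calls over all genes in place of 899. For control against time-0 (2) it was 1 without the filter, 1 in F alone, 0 in M alone, 0 with the nuclear RNA share and 0 to 2 over left-out libraries. For TLS against time-0 (1) it was 2 with DESeq2, 2 with RLE scaling, 0 with the nuclear share and 1 to 2 over left-out libraries. The cause of these moves was not tested.

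The liver-kidney difference of the TLS effect was called for 1 member and for 0 with the animal as a replicate block (Bhmt -2.21), with 14 genes called in all against 60, and 39 without the same animals and no block. Over all genes in liver, TLS against control gave 265 calls, 620 with DESeq2, 64 with only both groups, 154 without the sex covariate, 411 with the nuclear share, 48 in M and 2 in F. No value changed sign where it was called. Liver depth reaches down to 4031533 counts and liver Mtr to 11 reads.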
